A study of Homo sapiens and Mus musculus with 21 samples.

Results

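SMOC2, LGR5, ASCL2, PROX1, TNFRSF19, OLFM4, SOX9 and PROM1 are 8 human genes known from the stem cell compartment of the intestinal crypt. They were followed through 6 groups of human colorectal tumour xenografts. They are 8 of the 58336 human genes measured, and 7 of the 22981 that passed a filter of at least 1 TPM, a transcript abundance corrected for length and library total, in 3 or more libraries. The 8 genes were chosen by name with their levels in these libraries already known. Their values are therefore given as a description, with differences and standard errors but no test. The share of all genes whose groups do not overlap was not computed, so a lack of overlap is a description too. OLFM4 did not pass the filter. SMOC2, LGR5 and PROM1 passed it with 15, 12 and 13 libraries at or above the minimum, and ASCL2, PROX1, TNFRSF19 and SOX9 with all 18.

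SW480 and SW620 are colorectal adenocarcinoma lines derived from a primary tumour and from a lymph node metastasis of the same patient. Cells of either line were placed in the caecal wall of NSG mice, an immunodeficient strain, and the tissue was taken after 28 days. SW480 dnLEF1 and SW620 dnLEF1 tumours came from cells transduced with a dominant negative form of LEF1, and SW480 Mock and SW620 Mock tumours from mock-transduced cells. SW620 LRP6KO cells had received CRISPR/Cas9 reagents against the Wnt co-receptor LRP6, were selected with puromycin and were sorted for low LRP6 protein on the surface, so they are a sorted population. SW620 Cas9 cells were the mock control of that step. Each group had 3 libraries, made from full-length cDNA by the Smart-seq2 method, from a small piece of caecum that also holds mouse cells. The submitters' design text speaks of biological triplicates, but the labels do not tie each library to an animal of its own. The p-values given below for other genes thus measure the spread between these samples, which may be technical. In such bulk tissue fewer cells of a type and less RNA per cell cannot be told apart.

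Stem cells at the base of the crypt divide under Wnt ligands from neighbouring cells. Wnt binds Frizzled and LRP5 or LRP6, beta-catenin then accumulates, enters the nucleus and binds proteins of the LEF1 and TCF family on DNA, and target genes are switched on. A dominant negative LEF1 lacks the part that binds beta-catenin and occupies the same DNA. LGR5 is the R-spondin receptor that marks crypt base stem cells, and R-spondins strengthen the Wnt signal by clearing the ubiquitin ligases RNF43 and ZNRF3 from the cell surface. ASCL2, SOX9 and PROX1 are transcription factors, SMOC2 and OLFM4 are secreted proteins, TNFRSF19 (TROY) is a receptor of the tumour necrosis factor family, and PROM1 (CD133) is a membrane glycoprotein used as a stem and tumour cell marker. Both lines carry truncated APC, the scaffold of the complex that degrades beta-catenin, so the pathway is active in them without ligand.

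LEF1 and TCF proteins recognise DNA around the letters CTTTG. The sequence just upstream of a start is shown for the gene with the largest difference, SMOC2, and for the only member window that held a longer form of these letters, at PROM1. Each is the 250 bases before a RefSeq transcript start in GRCh38.p14, read 5′ to 3′ along the gene, with CTTTG and its reverse complement CAAAG in capitals.
SMOC2, chr6:168440934-168441183, plus strand: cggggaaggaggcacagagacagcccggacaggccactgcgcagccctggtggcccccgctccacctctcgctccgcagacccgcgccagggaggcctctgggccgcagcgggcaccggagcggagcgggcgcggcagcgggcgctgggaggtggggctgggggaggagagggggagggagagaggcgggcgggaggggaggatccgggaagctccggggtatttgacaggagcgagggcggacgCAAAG
PROM1, start 4 in the table, chr4:16076119-16076368, minus strand: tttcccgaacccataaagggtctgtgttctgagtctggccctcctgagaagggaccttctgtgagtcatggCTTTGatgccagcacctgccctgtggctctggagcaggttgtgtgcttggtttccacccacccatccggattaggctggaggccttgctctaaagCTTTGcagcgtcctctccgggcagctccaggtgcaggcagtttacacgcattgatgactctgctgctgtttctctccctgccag

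Counting back from the start, the SMOC2 window held 1 match, on the reverse strand, that begins at position -5. The PROM1 window held 2 matches on the forward strand, beginning at positions -179 and -84, and the former extends to CTTTGAT. In windows of 300 bases, 250 before and 50 after a start, searched on both strands, 47.5% of 35116 RefSeq promoters held CTTTG or its reverse complement and 6.86% held CTTTGAA or CTTTGAT. One short match is therefore common at any start. The SMOC2 window was also rich in G and C, at 75.0% against a median of 58.7% over all promoters. TNFRSF19 had 2 starts in the table and OLFM4 had 1. One TNFRSF19 start and the OLFM4 start held 1 reverse match each, and the other 3 PROM1 starts held none. LGR5, ASCL2, PROX1 and SOX9 were not analysed at this level. A match describes the letters and not a bound site.

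LEF1 and LRP6 transcripts check the labels only in part. LEF1 was at 47.2 to 99.36 TPM in SW480 dnLEF1 against 5.09 to 14.75 in SW480 Mock, and at 18.25 to 23.98 TPM in SW620 dnLEF1 against 0.3 to 0.8 in SW620 Mock. Gene-level values add up transgene and endogenous LEF1. LRP6 was at 17.45 to 21.12 TPM in LRP6KO and 10.93 to 17.83 TPM in Cas9, and the selection was on protein, so this transcript does not test the knock-out. Libraries held 24665 to 34709 genes above 0, the highest of them SW480 Mock replicate 2. TPM are scaled within each library and keep no read depth. The 10 epithelial markers summed to 8890 to 22100 TPM over the libraries, and the keratins KRT8, KRT18 and KRT19 were the highest of them, each at 1197 TPM or more. The tight junction gene CLDN7 had group means of 3.03 to 6.15 TPM in SW620 and 294 TPM in SW480 Mock, and the cadherin CDH1 of 3.55 to 7.30 TPM in SW620. The intestinal cadherin CDH17 was at most 1.17 TPM in any library, and the intestinal factor CDX2 was at most 4.68 TPM in SW620 and at 34.21 to 46.24 TPM in SW480 Mock.

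SMOC2 encodes a secreted calcium-binding matrix protein of the SPARC family and lies on chromosome 6 from 168441151 to 168673445 on the plus strand (GRCh38, GENCODE release 29). In SW480 Mock it was at 0.52, 0.37 and 0.36 TPM. In SW480 dnLEF1 it was at 18.06, 26.79 and 32.31 TPM. The lowest dnLEF1 library lay far above every Mock library, and the means were 25.72 and 0.42 TPM, a ratio of 61.7. On the log2(TPM + 1) scale, which understates ratios for genes at low levels, the difference was 4.20 (SE 0.22).

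In SW620 the same gene was already present without dnLEF1. SW620 Mock had 24.59, 13.03 and 15.36 TPM of SMOC2, and SW620 dnLEF1 had 19.25, 22.47 and 24.57 TPM. The groups overlapped, since the first Mock library was as high as the highest dnLEF1 library. The log2 difference was 0.35 (SE 0.22). The dnLEF1 change in SW620 minus that in SW480 came to -3.85 (SE 0.31).

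SW620 Cas9 had 23.33, 21.34 and 22.93 TPM of SMOC2, and LRP6KO had 16.85, 15.30 and 14.93 TPM. All 3 LRP6KO libraries were below all 3 Cas9 libraries, with a log2 difference of -0.50 (SE 0.22). SW620 Mock, the control of the other SW620 pair, spanned both groups with its range of 13.03 to 24.59 TPM. Ordered by mean, SMOC2 ran from SW480 dnLEF1 through SW620 Cas9, dnLEF1, Mock and LRP6KO, each overlapping the next, to SW480 Mock, which overlapped none. The level in SW480 dnLEF1 tumours was thus within or above the range of 13.03 to 24.59 TPM over the 12 SW620 libraries.

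**Figure D1:**
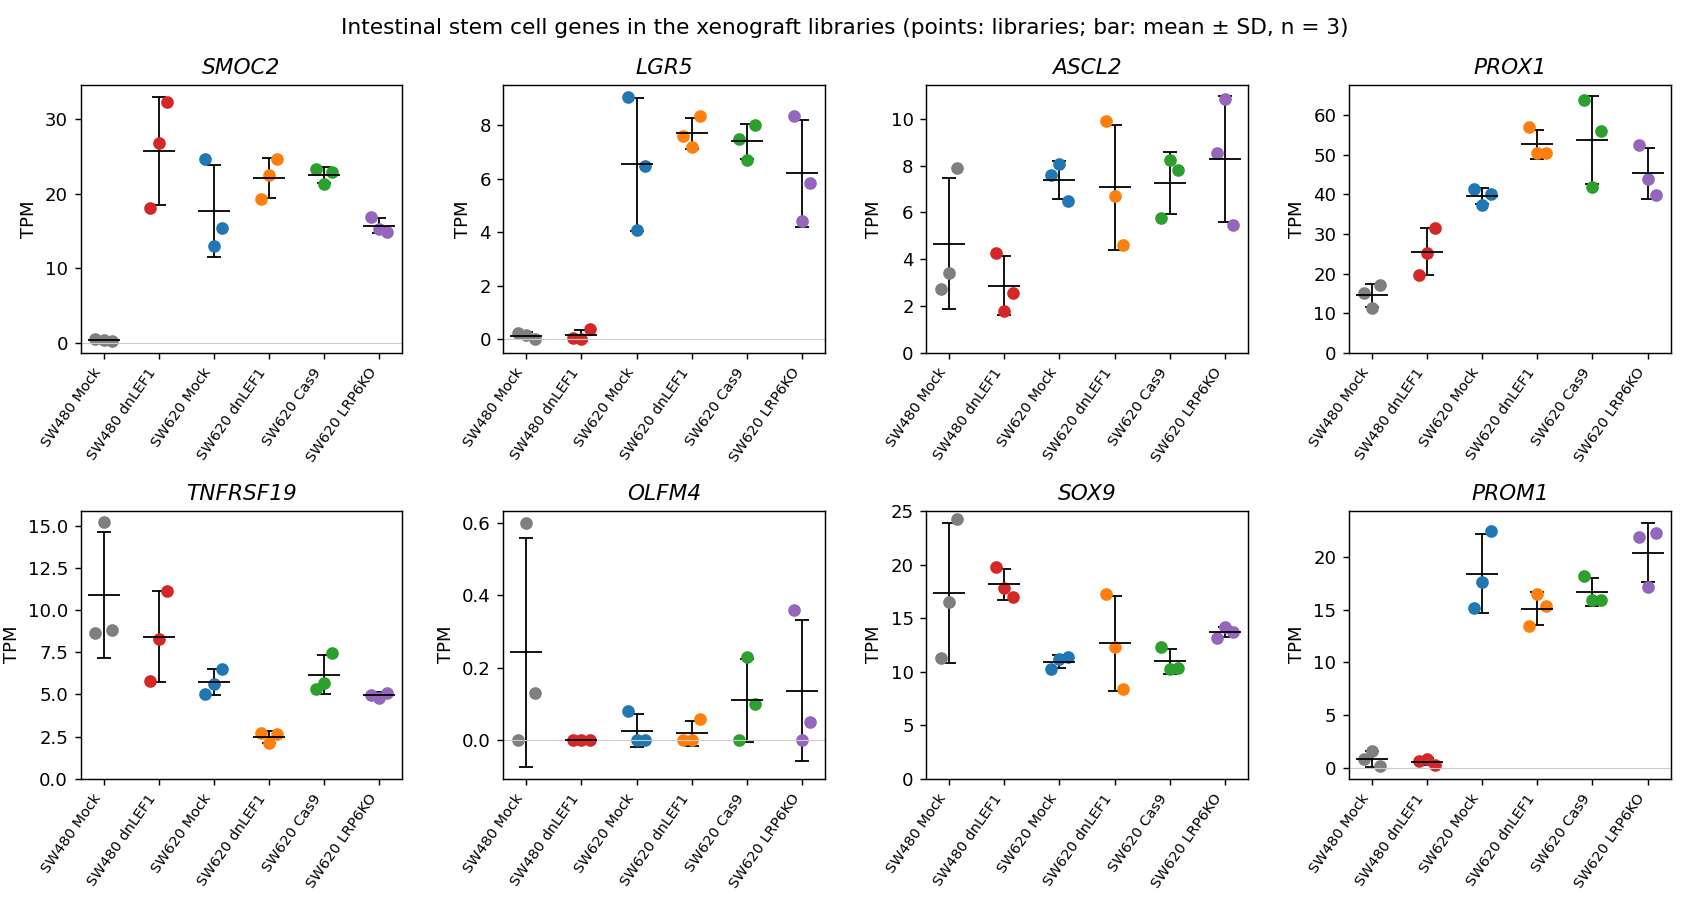
TPM of the 8 genes (vertical axes, 1 panel and 1 scale per gene) in the 6 groups, with 1 point per library, a wide bar at the mean and error bars of 1 SD (n = 3). SMOC2 is near 0 only in SW480 Mock, LGR5 and PROM1 are low in both SW480 groups, and OLFM4 stays below 1 TPM.

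LGR5, the R-spondin receptor (chromosome 12, 71439770 to 71586310, plus strand), followed the line and not the dnLEF1 groups. In SW480 dnLEF1 it was at 0.06, 0 and 0.39 TPM, and in SW480 Mock at 0.24, 0.16 and 0 TPM. The groups overlapped and the log2 difference was 0.01 (SE 0.26). With SW480 Mock already near 0, a fall in SW480 dnLEF1 could not have been seen. In SW620 Mock LGR5 was at 9.04, 4.09 and 6.47 TPM, and in SW620 dnLEF1 at 7.58, 7.18 and 8.32 TPM. These groups overlapped too (log2 difference 0.26, SE 0.26). Cas9 had 7.46, 6.69 and 8.01 TPM and LRP6KO 8.35, 4.41 and 5.84 TPM, again with overlap (log2 difference -0.25, SE 0.26). Ordered by mean, SW620 dnLEF1, Cas9, Mock and LRP6KO ran from 7.69 to 6.20 TPM, each overlapping the next, and the SW480 groups followed below a gap at 0.15 and 0.13 TPM. The 12 SW620 libraries had a median of 7.32 TPM, and the 6 SW480 libraries a median of 0.11 TPM with 2 libraries listed at 0.

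The LGR5 span touches that of TSPAN8 on the opposite strand, whose means were 0 TPM in SW480 dnLEF1, 2.06 TPM in SW480 Mock and 2.02 to 5.18 TPM in the SW620 groups. SMOC2, ASCL2, TNFRSF19 and OLFM4 overlap no other annotated gene.

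SMOC2 and LGR5 therefore took different levels in SW480 dnLEF1, where SMOC2 reached 18.06 to 32.31 TPM and LGR5 stayed at 0.39 TPM or less. Every one of the 12 SW620 libraries had both genes, at or above 13.03 TPM for SMOC2 and 4.09 TPM for LGR5. Within SW620, deviations of the libraries from their group means on the log2 scale gave an r of 0.781 and a rho of 0.678 for this pair over 12 libraries, the highest r of 21 pairs of the 7 genes. Without SW620 Mock replicates 1 and 2, the libraries farthest out for SMOC2, r was 0.416. The value rests largely on those libraries, which share depth and processing across genes, and it is a description only.

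**Figure D2:**
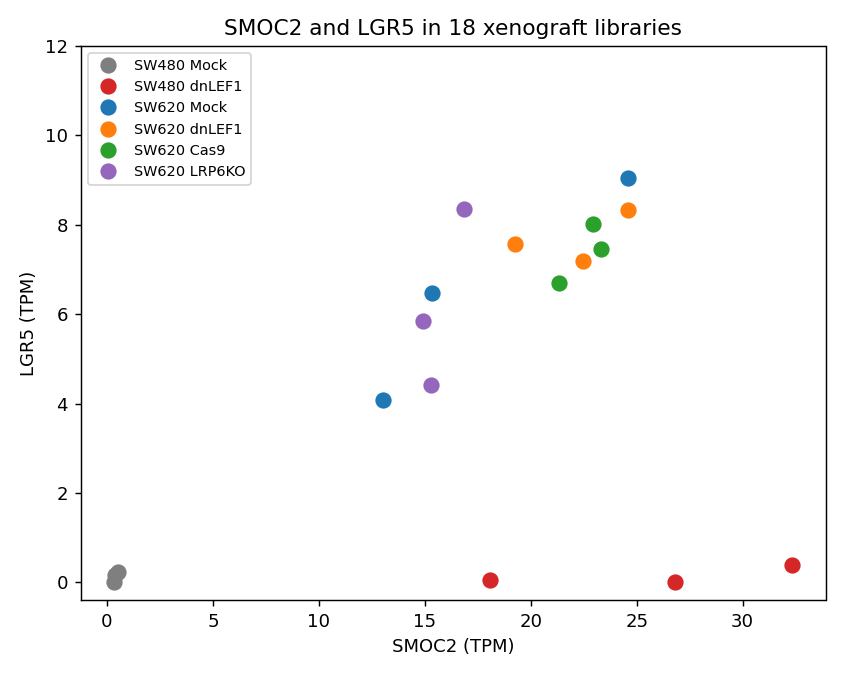
LGR5 (vertical axis, TPM) against SMOC2 (horizontal axis, TPM), 1 point per library, colours for the 6 groups. The SW480 dnLEF1 libraries lie at SMOC2 levels of 18.06 to 32.31 TPM with LGR5 at 0.39 TPM or less, apart from both the SW480 Mock and the SW620 libraries.

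PROM1 (chromosome 4, 15963076 to 16084378, minus strand) had the same division by line. It was at 0.64, 0.84 and 0.23 TPM in SW480 dnLEF1 and at 0.80, 1.53 and 0.10 TPM in SW480 Mock. These groups overlapped (log2 difference -0.14, SE 0.26), and levels this low in Mock leave little room for a fall. SW620 Mock had 15.16, 17.62 and 22.55 TPM and SW620 dnLEF1 13.44, 16.55 and 15.33 TPM, which also overlapped (log2 difference -0.26, SE 0.26). Cas9 had 18.27, 15.90 and 15.92 TPM and LRP6KO 21.89, 17.21 and 22.28 TPM, overlapping at the lower end of LRP6KO (log2 difference 0.27, SE 0.26). The order of means was LRP6KO, Mock, Cas9 and dnLEF1 within SW620, from 20.46 to 15.11 TPM with each overlapping the next, and then SW480 Mock and dnLEF1 at 0.81 and 0.57 TPM. No SW480 library came near the lowest SW620 library of 13.44 TPM. Over the 12 SW620 libraries the PROM1 median was 16.88 TPM, and 1 of the 6 SW480 libraries reached 1 TPM.

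OLFM4, a secreted glycoprotein of human crypt base cells (chromosome 13, 53028759 to 53052057, plus strand), was nearly missing from both lines. It was listed at 0 in 4 of the 6 SW480 and in 6 of the 12 SW620 libraries. The highest values were 0.6 TPM in SW480 Mock and 0.36 TPM in LRP6KO. No group order can be read from such values, and no ratio is given.

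PROX1, a homeobox transcription factor that acts downstream of Wnt in colorectal tumours (chromosome 1, 213983181 to 214041502, plus strand), was the most abundant of the 8 in SW620. In SW480 it was at 15.19, 11.42 and 17.07 TPM in Mock and at 19.72, 25.21 and 31.56 TPM in dnLEF1. The dnLEF1 libraries were all above the Mock libraries, with a log2 difference of 0.76 (SE 0.19). In SW620 it was at 41.39, 37.34 and 39.98 TPM in Mock and at 56.86, 50.47 and 50.50 TPM in dnLEF1, again without overlap (log2 difference 0.40, SE 0.19). The difference between these changes was -0.36 (SE 0.27). In order of means PROX1 ran from Cas9 at 53.8 TPM through SW620 dnLEF1 and LRP6KO to SW620 Mock at 39.57 TPM, each overlapping the next. SW480 dnLEF1 at 25.5 TPM and SW480 Mock at 14.56 TPM followed, each apart from the group above. PROX1 in SW480 dnLEF1 thus remained below all 12 SW620 libraries, of which the lowest had 37.34 TPM, unlike SMOC2.

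PROX1 also differed between the control groups of SW620. Cas9 had 63.71, 41.78 and 55.92 TPM of PROX1 and LRP6KO had 52.36, 43.75 and 39.75 TPM, which overlapped (log2 difference -0.23, SE 0.19). Cas9 against SW620 Mock gave a log2 difference of 0.41 (SE 0.19) without overlap, beside 0.40 for dnLEF1 against the same Mock libraries, which these comparisons share. PROX1 shares part of its span with the antisense gene PROX1-AS1, and no strand is stated for the counting, so reads there cannot be assigned with certainty. PROX1-AS1 was at 5.74 TPM in SW480 Mock and 6.86 TPM in SW480 dnLEF1 on average and at 33.69 to 39.62 TPM in the SW620 groups.

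ASCL2, a basic helix-loop-helix factor that sets the crypt stem cell programme with LGR5 (chromosome 11, 2268495 to 2270952, minus strand), was low in both lines. SW480 Mock had 2.72, 3.40 and 7.89 TPM and SW480 dnLEF1 4.26, 1.81 and 2.55 TPM, which overlapped (log2 difference -0.49, SE 0.34). SW620 Mock had 7.59, 8.06 and 6.47 TPM and SW620 dnLEF1 9.89, 6.69 and 4.62 TPM, also overlapping (log2 difference -0.10, SE 0.34). Cas9 with 5.76, 8.22 and 7.81 TPM and LRP6KO with 8.54, 10.83 and 5.45 TPM overlapped as well (log2 difference 0.14, SE 0.34). The 6 groups formed an unbroken chain of overlapping neighbours, from 8.27 TPM in LRP6KO to 2.87 TPM in SW480 dnLEF1. Its median was 7.7 TPM over the 12 SW620 and 3.06 TPM over the 6 SW480 libraries, and the highest SW480 library, at 7.89 TPM, was a Mock library.

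SOX9, a Wnt-dependent factor of progenitor and Paneth cells (chromosome 17, 72121020 to 72126420, plus strand), had values in all groups between 8.4 and 24.26 TPM. SW480 Mock had 11.27, 16.52 and 24.26 TPM and SW480 dnLEF1 19.77, 17.80 and 16.98 TPM, which overlapped (log2 difference 0.12, SE 0.24). SW620 Mock had 10.26, 11.22 and 11.35 TPM and SW620 dnLEF1 17.30, 12.28 and 8.40 TPM, with overlap (log2 difference 0.14, SE 0.24). Cas9 had 12.30, 10.27 and 10.34 TPM and LRP6KO 13.19, 14.15 and 13.73 TPM, which did not overlap (log2 difference 0.30, SE 0.24). The 6 groups again formed a chain of overlapping neighbours, from SW480 dnLEF1 at 18.18 TPM to SW620 Mock at 10.94 TPM. The SW480 median was 17.39 TPM and the SW620 median 11.81 TPM. The antisense gene SOX9-AS1 spans SOX9 entirely. Its means were 23.38 and 39.97 TPM in SW480 Mock and dnLEF1 and 1.70 to 6.47 TPM in the SW620 groups, so the higher SOX9 levels of SW480 went with far higher antisense levels. The share of SOX9 reads that belong to it was not tested.

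TNFRSF19, a receptor induced in crypt stem cells by Wnt (chromosome 13, 23570370 to 23676104, plus strand), stood lowest in SW620 dnLEF1. SW620 Mock had 5.04, 5.65 and 6.54 TPM and SW620 dnLEF1 2.70, 2.09 and 2.68 TPM. Every dnLEF1 library was below all of the other 9 SW620 libraries, Mock included. The log2 difference was -0.95 (SE 0.24), where the median over all genes tested was -0.12. With libraries scaled by their median ratio, the median of all genes moved to -0.001 and the TNFRSF19 difference to -0.82.

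In SW480, TNFRSF19 was at 8.67, 15.25 and 8.82 TPM in Mock and at 5.79, 8.31 and 11.17 TPM in dnLEF1. These groups overlapped (log2 difference -0.33, SE 0.24), and the changes in the lines differed by -0.61 (SE 0.34). Cas9 had 5.32, 5.69 and 7.48 TPM and LRP6KO 4.99, 4.76 and 5.10 TPM, which did not overlap (log2 difference -0.26, SE 0.24). In order of means TNFRSF19 ran from SW480 Mock at 10.91 TPM through SW480 dnLEF1, Cas9, SW620 Mock and LRP6KO at 4.95 TPM, each overlapping the next, to SW620 dnLEF1 at 2.49 TPM, which stood apart. It was the only one of the 8 genes for which SW620 dnLEF1 took the lowest place. The summed epithelial markers were also lower in SW620 dnLEF1, at 8890 to 10960 TPM against 15370 to 17320 TPM in SW620 Mock, and 4 smooth muscle markers summed to 7.49 to 12.31 against 15.72 to 22.39 TPM. Their part in the TNFRSF19 result was not tested.

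**Figure D3:**
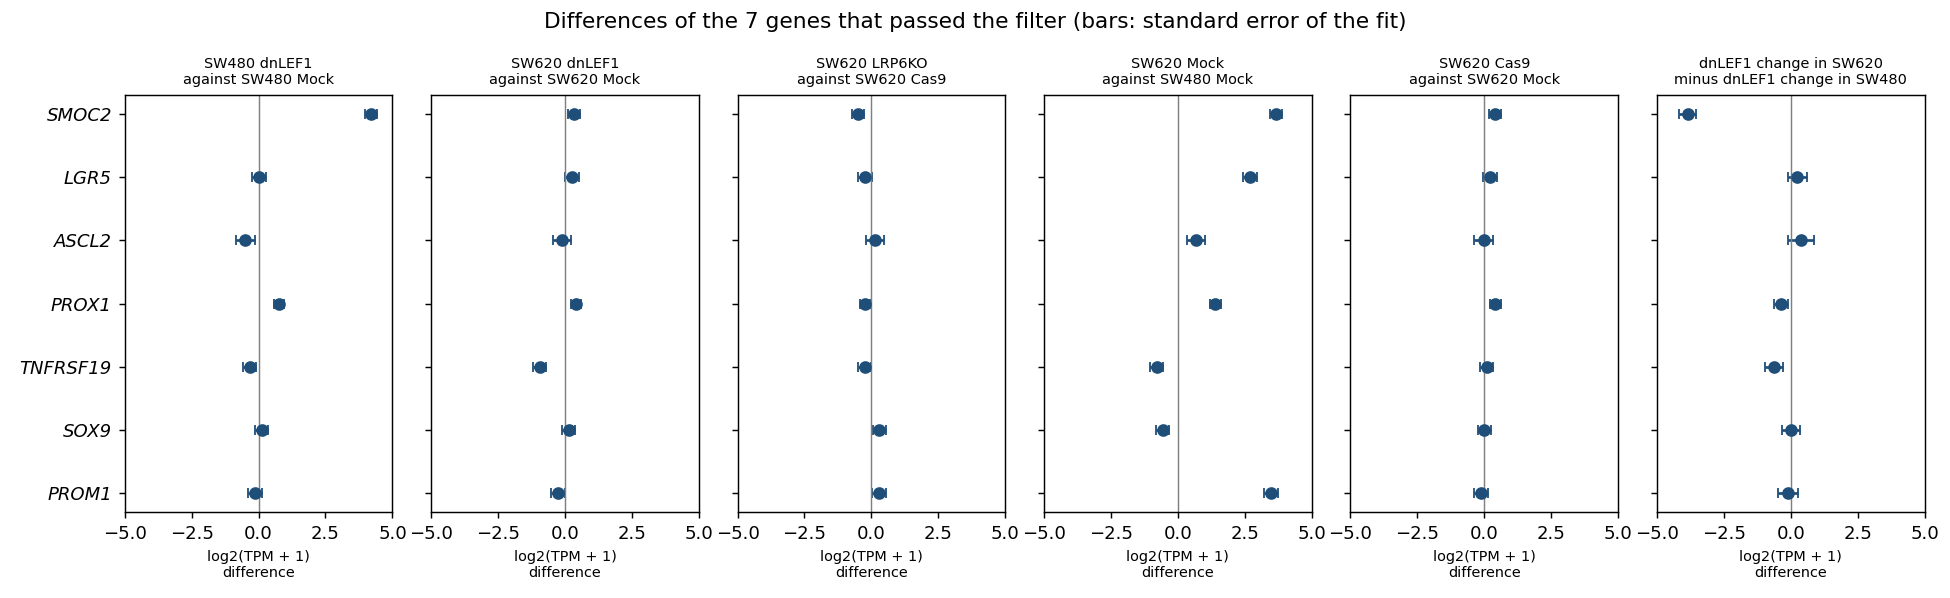
Differences of log2(TPM + 1) for the 7 genes that passed the filter (rows) in 6 comparisons (panels), with points at the fitted difference and bars of 1 standard error. SMOC2 stands at 4.20 in SW480 dnLEF1 against Mock and TNFRSF19 at -0.95 in SW620 dnLEF1 against Mock, while the LRP6KO and Cas9 panels stay between -0.50 and 0.41.

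Counted against the whole table, the 7 genes were few among many. limma with Benjamini-Hochberg adjustment called 1.35% of genes higher and 0.875% lower in SW480 dnLEF1 against Mock, and 1 of the 7 genes, SMOC2, was among them. In SW620 dnLEF1 against Mock it called 0.0566% higher and 0.109% lower and none of the 7. For LRP6KO against Cas9 and for Cas9 against SW620 Mock 0% were called in either direction, with 766 and 1154 genes at an unadjusted p under 0.05. Between the dnLEF1 changes of the lines 0.178% were called higher and 0.54% lower in SW620, and SMOC2 was the only one of the 7 among them. Since the genes were chosen with these values known, nothing is read from these counts.

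The Mock groups of the lines were compared next. SMOC2 was higher in SW620 by 3.67 (SE 0.22), PROM1 by 3.49 (SE 0.26), LGR5 by 2.68 (SE 0.26) and PROX1 by 1.40 (SE 0.19) on the log2 scale. None of these 4 overlapped between the Mock groups, but the share of all genes without overlap was not computed. ASCL2 (0.67, SE 0.34) and SOX9 (-0.56, SE 0.24) overlapped, and TNFRSF19 was lower in SW620 without overlap (-0.78, SE 0.24). This comparison shares the SW480 Mock libraries with that of dnLEF1 in SW480. It called 10.9% of all genes higher and 12.9% lower in SW620, so a difference between the lines is common. The lines differ in many ways at once, which cannot be told apart here.

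A wider list of 28 stem and progenitor genes, of which 26 were tested, was read beside these values. The lists used here and below, like the 8 genes, were chosen with earlier results of these data known. Their counts and p-values are therefore no independent measure. AXIN2, RNF43, ZNRF3 and SP5 are also among the listed Wnt readouts and factors, so their results are counted in both lists. In SW480 dnLEF1 against Mock limma called 1 of the 26 higher and 1 lower, with a median log2 difference of 0.09 beside 0.03 over all genes. AXIN2, the feedback inhibitor that Wnt signalling induces, fell to 29.33 ± 3.43 TPM from 57.24 ± 7.85 TPM in Mock (SD over 3 libraries each; log2 difference -0.94, SE 0.19, limma adjusted p 0.0147). ETS2, a transcription factor of the LGR5 stem cell signature, rose to 109.9 ± 24.4 from 56.87 ± 9.08 TPM (0.93, SE 0.19, limma adjusted p 0.017). With only the 6 SW480 libraries in the fit neither passed, at limma adjusted p of 0.224 and 0.277, and LEF1 itself came to 0.087. AXIN2 also lost its call with array weights (limma adjusted p 0.0864) and without SW480 dnLEF1 replicate 2, and ETS2 with median-ratio scaling (0.057) and without SW480 dnLEF1 replicate 3 or SW480 Mock replicate 1.

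No gene of the wider list was called in SW620 dnLEF1 against Mock, in LRP6KO against Cas9 or in Cas9 against Mock, with 2, 1 and 3 of 26 at an unadjusted p under 0.05 in limma. The medians were -0.11, -0.01 and -0.07, beside -0.12, 0.07 and -0.03 over all genes. The smallest p of each belonged to the telomerase gene TERT in SW620 dnLEF1 (log2 difference -1.17, SE 0.42, limma adjusted p 0.449), the ion transporter SLC12A2 in LRP6KO (0.80, SE 0.20, limma adjusted p 0.842) and ALCAM, a cell adhesion molecule, in Cas9 (-1.15, SE 0.39, limma adjusted p 0.788). Between the dnLEF1 changes of the lines none of the 26 was called and 6 had an unadjusted p under 0.05, with ALCAM the lowest (-1.88, SE 0.56, limma adjusted p 0.137). Refits with other scaling, filters, pseudocounts or library weights and with libraries left out also gave 0 for these 4 comparisons.

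**Figure D4:**
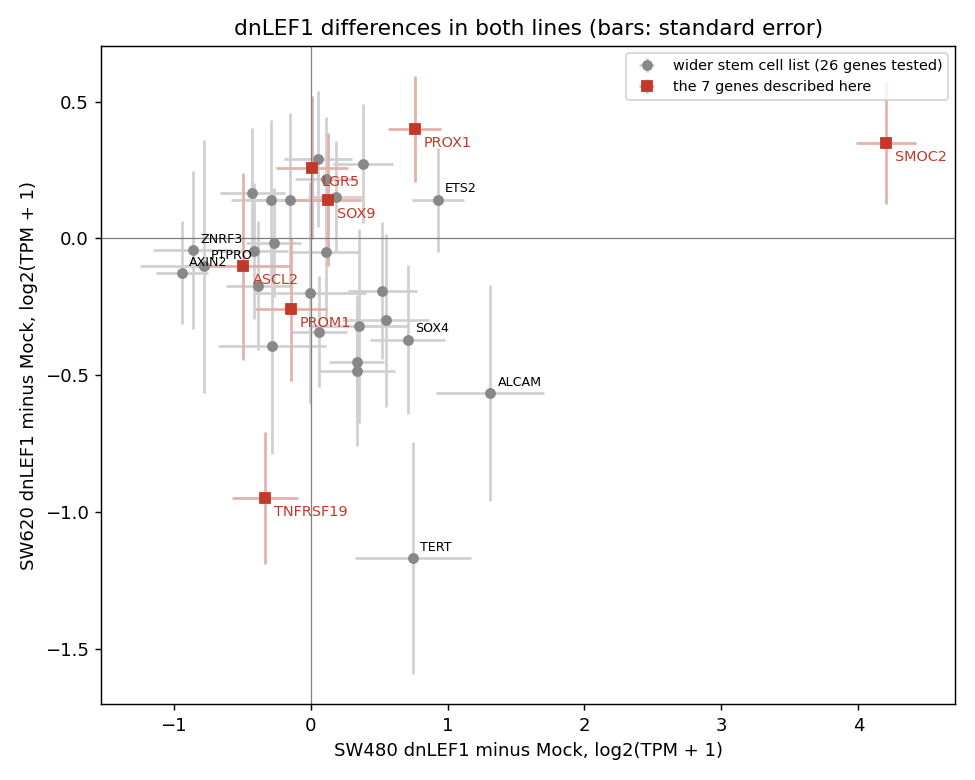
Log2(TPM + 1) difference of dnLEF1 against Mock in SW620 (vertical axis) against that in SW480 (horizontal axis), with red squares for the 7 genes, grey circles for the 26 tested genes of the wider list and bars of 1 standard error. SMOC2 lies alone at 4.20 on the SW480 axis, and TNFRSF19 and TERT are the lowest on the SW620 axis at -0.95 and -1.17. For TERT SW620 Mock was the high group, with a mean of 2.71 TPM against 0.78 in dnLEF1, 1.23 in Cas9 and 0.97 in LRP6KO.

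Between the lines, 16 of the 26 wider genes were called, 11 higher and 5 lower in SW620, with a median of 0.52 beside -0.14 over all genes. The transcription factor SOX4 was at 79.9 ± 3.91 TPM in SW620 Mock and 5.51 ± 3.01 in SW480 Mock (SD, n = 3 each, log2 difference 3.73, SE 0.27, limma adjusted p 5.16e-08), close to the SMOC2 difference. CD24, a surface glycoprotein with processed copies elsewhere in the genome that may share reads, CDK6, a cell cycle kinase, and MYB, a progenitor transcription factor, were higher by 3.46, 2.46 and 2.00. The others were PHLDA1, GPX2, SLC12A2, TERT, ALCAM, MEX3A and CDCA7, of which PHLDA1 and GPX2 overlap other expressed genes.

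The 5 wider genes lower in SW620 were CD44, ETS2, RNF43, AXIN2 and SP5. CD44, the hyaluronan receptor, was at 5.42 ± 1.62 TPM in SW620 Mock and 91.45 ± 25.8 in SW480 Mock (SD, n = 3 each, log2 difference -3.84, SE 0.29, limma adjusted p 7.07e-08). The call of SP5 (-0.68, limma adjusted p 0.039) was lost under 9 of 12 alternatives, where its limma adjusted p reached 0.169, and those of TERT and ALCAM each under 3 of 12. Of the 14 listed Wnt readouts and factors 4 were higher in SW620 Mock and 7 lower, with a median of -0.61 beside -0.14 over all genes. The higher ones were DKK1 (1.43), NKD1 (1.28), NOTUM (1.02) and TCF7L2 (0.70), of which the calls of NOTUM, TCF7L2 and NKD1 were lost under 8, 7 and 1 of 12 alternatives. The lower ones were APCDD1 (-4.99), LEF1 (-2.84), CCND1 (-2.20), RNF43 (-2.19), TCF7 (-2.17), AXIN2 (-1.07) and SP5. RNF43 shares its span with SUPT4H1, and NKD1 with AC007608.4 on the same strand, so their levels are less certain. AC007608.4 had means of 39.55 TPM in SW480 Mock and 82.37 TPM in SW620 Mock. TCF7, CCND1 and LEF1 overlap SKP1, LTO1 and LEF1-AS1 on the opposite strand, and no strand is stated for the counting. SKP1 had means of 849 TPM in SW480 Mock and 578.9 TPM in SW620 Mock, beside 16.96 and 3.17 TPM of TCF7. The level of TCF7 is therefore less certain too.

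**Figure D5:**
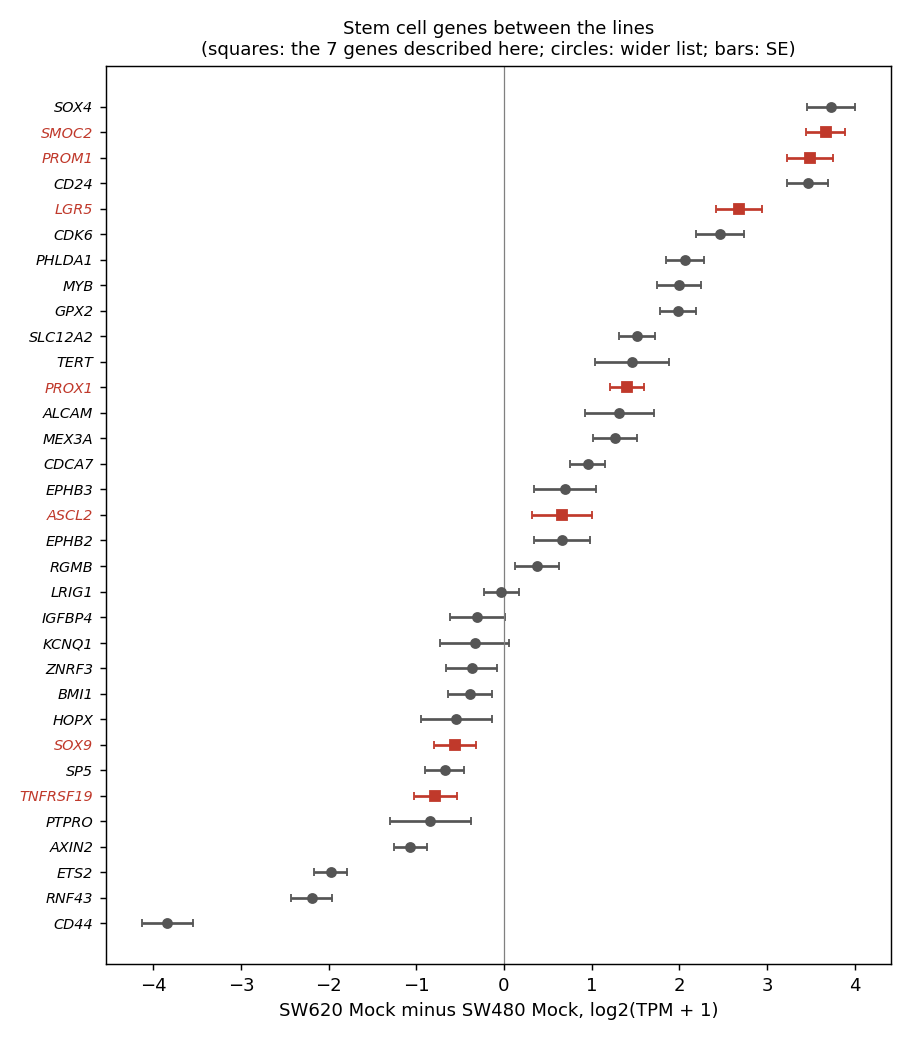
Difference of log2(TPM + 1) between SW620 Mock and SW480 Mock (horizontal axis) for the 7 genes (red squares) and the 26 tested genes of the wider list (black circles), sorted, with bars of 1 standard error. SOX4, SMOC2, PROM1, CD24 and LGR5 are the 5 highest, from 3.73 to 2.68, and CD44 is the lowest at -3.84.

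LGR5 has relatives and partners that were measured with it. Of 8 genes of the R-spondin and LGR axis 4 were tested, and none was called in SW480 dnLEF1 against Mock (limma, 1 at an unadjusted p under 0.05). LGR6, the closest relative with a level, was at 23.07 ± 6.32 TPM in SW480 dnLEF1 and 16.77 ± 5.80 in SW480 Mock, and at 14.13 ± 4.22 TPM in SW620 Mock (SD, n = 3 each), so SW480 tumours had a receptor of this family with LGR5 near 0. LGR4 was at 2.69 TPM or less in every library. The 4 R-spondin genes did not pass the filter, and the highest library had 0.79 TPM of any of them. RNF43 was the 1 of the 4 tested genes called between the lines, lower in SW620 as given above.

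No tested relative of SMOC2 in the SPARC family was called in SW480 dnLEF1 against Mock. SMOC1, its nearest relative, was at 3.28 ± 1.72 TPM in SW480 dnLEF1 and 3.69 ± 3.67 in SW480 Mock (SD, n = 3 each, log2 difference 0.07, SE 0.57). SPARC had means of 8.89 and 31.69 TPM (-1.29, SE 0.57, limma adjusted p 0.294), and 1 SW480 Mock library at 70.68 TPM stood far above the others. Of 7 listed relatives 4 were tested, of which 2 had an unadjusted p under 0.05 in limma. Between the lines SPARC (-3.30, SE 0.57, limma adjusted p 0.00043) and SPOCK1 (-1.11, SE 0.31, limma adjusted p 0.0134) were lower in SW620 and none was higher. The SPOCK1 call was lost without SW620 Mock replicate 1 (limma adjusted p 0.053), without SW620 Mock replicate 3 (0.0501) and without SW480 Mock replicate 2 (0.0546).

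Because fibroblasts and vessel cells can also express SMOC2, the human counterparts of their markers were read beside it. The 6 fibroblast markers summed to 10.66 to 14.92 TPM in SW480 dnLEF1 and 4.66 to 13.55 TPM in SW480 Mock, and COL3A1 was at most 0.23 TPM in any library. Group means in SW480 Mock and SW480 dnLEF1 were 5.12 and 9.38 TPM for COL1A1 and 0.1 and 0.757 TPM for PDGFRA. Those of LUM were 0 and 0.113 TPM. COL1A2 and DCN went the other way, from 1.133 to 0.797 TPM and from 1.297 to 0.957 TPM. The 4 vessel markers summed to 2.11 to 5.83 TPM against 0.72 to 2.35 TPM, and the smooth muscle markers to 49.29 to 63.01 against 33.41 to 77.98 TPM. Only cells of the tumour lines were placed in the mice, so fibroblasts and vessel cells of the tissue were mouse cells. Whether their reads were counted under human genes, and their part in the SMOC2 result, was not tested.

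SMOC2 is also known to act on BMP signalling, which opposes the stem cell state, so 17 tested of 21 BMP genes were read with it. In SW480 dnLEF1 against Mock ID2, a direct BMP target and inhibitor of basic helix-loop-helix factors, fell to 37.94 ± 4.42 TPM from 105.1 ± 10.5 TPM in Mock (log2 difference -1.45, SE 0.15, limma adjusted p 6.67e-05). ID3, a gene of the same family, rose to 8.82 ± 1.14 from 3.72 ± 1.07 TPM (1.07, SE 0.26, limma adjusted p 0.0404). The ID3 call was lost with the 6 SW480 libraries alone (limma adjusted p 0.329), under every other refit but the smaller pseudocount, and without any of SW480 dnLEF1 replicates 2 and 3 and SW480 Mock replicates 1 and 3. The list moved in no single direction, with 1 gene higher, 1 lower and a median of 0.30 beside 0.03 over all genes. In SW620 dnLEF1 none of the 17 was called (limma, 1 at an unadjusted p under 0.05).

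Genes of differentiated intestinal cells were mostly below the filter, with 9 of 28 tested. In SW480 dnLEF1 against Mock CDX2, the intestinal homeobox factor, fell to 12.68 ± 3.10 TPM from 40.62 ± 6.05 TPM in Mock (log2 difference -1.62, SE 0.28, limma adjusted p 0.00696). CHGB, an enteroendocrine granule protein, rose to 5.34 ± 1.45 from 2.10 ± 0.53 TPM (1.02, SE 0.20, limma adjusted p 0.0116). With the 6 SW480 libraries alone the limma adjusted p were 0.0784 and 0.424. CDX2 also missed the threshold with a pseudocount of 0.1 (limma adjusted p 0.0836), and CHGB without SW480 dnLEF1 replicate 2. No gene of the list was called in SW620 dnLEF1 against Mock (limma, 2 at an unadjusted p under 0.05), except CDX2 with array weights (-0.98, limma adjusted p 0.0381).

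All 14 listed Wnt readouts and factors were tested, and in SW480 dnLEF1 against Mock AXIN2 and DKK1 fell and LEF1 rose (2.50, SE 0.33). LEF1 is the transduced gene, and its values add up transgene and endogenous LEF1. Its rise in either line is therefore no readout of Wnt, and it also enters the medians of this list. DKK1, a secreted Wnt antagonist, was at 4.11 ± 0.92 TPM, and at 10.01 ± 2.62 TPM in Mock (log2 difference -1.10, SE 0.24, limma adjusted p 0.0221), a call lost with the SW480 libraries alone (limma adjusted p 0.339), with array weights (0.0774) and without SW480 dnLEF1 replicate 2 or SW480 Mock replicate 1. The list's median was -0.18 beside 0.03 over all genes. In SW620 dnLEF1 only LEF1, the transduced gene, was called, with a list median of 0.13 beside -0.12. SMOC2 and PROX1 were therefore higher in the same SW480 libraries in which AXIN2 and DKK1 were lower. LGR5, ASCL2, SOX9 and PROM1 overlapped between the groups, and LGR5 and PROM1 were too low in SW480 Mock for a fall to be seen.

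The genes whose group means ran most like those of SMOC2 were sought among 12904 genes with at least 5 TPM in some group, by the mean absolute difference of centred log2 means over the 6 groups. FOXP1, a forkhead transcription factor, was nearest at 0.41. Its means were 3.69 TPM in SW480 Mock, 18.11 TPM in SW480 dnLEF1 and 28 to 38.59 TPM in the SW620 groups. The next were AC011462.1 (0.43), AC011558.1 (0.46), SNORD17 (0.48) and AC138866.1 (0.49). AC011462.1 had 6.48 TPM in SW480 Mock and 23.69 TPM in SW480 dnLEF1, but 10.29 to 16.8 TPM in the SW620 groups. No gene thus came as near to SMOC2 as the nearest genes did to the other members.

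PROM1 had CD24 as its nearest gene at 0.0927 and C3orf14 at 0.0998, and LGR5 had the noncoding LINC01173 at 0.0975 and RASGRF2-AS1 at 0.106, both listed at 0 in the SW480 groups. PROX1 was nearest to PPP1R1C (0.0716) and to the kinase gene PAK1 (0.0869). PPP1R1C had 5.75 and 10.83 TPM in SW480 Mock and dnLEF1 and 17.09 to 21.09 TPM in the SW620 groups. TNFRSF19 was nearest to the chloride channel gene CLIC3 (0.0753) and to AC087164.1 (0.0852). CLIC3 shared its lowest group, with 7.34 TPM in SW620 dnLEF1 against 16.92 TPM in SW620 Mock. ASCL2 was nearest to HAUS2 (0.029) and PAICS (0.0322), and SOX9 to AC125257.1 (0.0377) and NEMP1 (0.0391), small values for genes whose own means differed little. With 6 group means per gene these distances are descriptions.

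The genes around SMOC2 were read in the same comparison. Of 35 genes within 1 Mb on either side 7 were tested. In SW480 dnLEF1 against Mock 52.8% of all genes tested had a log2 difference above 0, and 1.35% were called higher and 0.875% lower. Of the 7 genes near SMOC2, 5 had a difference above 0 and 1 was called. That gene, AFDN-DT, a noncoding transcript divergent from AFDN, rose from 1.87 to 6.33 TPM on average (log2 difference 1.30, SE 0.28, limma adjusted p 0.0215). That call was lost under 6 of 12 alternatives, with a limma adjusted p of up to 0.357. LINC01558 had means of 1.34 TPM in SW480 Mock and 3.71 TPM in SW480 dnLEF1 (1.25, SE 0.43, limma adjusted p 0.172), and it differed by 1.12 between the Mock groups of the lines (limma adjusted p 0.0745). AFDN itself had 7.51 and 9.50 TPM (0.29, SE 0.27, limma adjusted p 0.689). The remaining tested genes had log2 differences of 0.60 for AL009178.3, 0.54 for WDR27, -0.16 for LINC02487 and -0.59 for AL513210.1. None of the 7 was called between the Mock groups of the lines by limma, where SMOC2 differed by 3.67.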

How the data were processed

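RNA was measured in 18 xenograft libraries of 6 groups with 3 libraries each. The deposited human table holds TPM per Ensembl gene, which the authors made, per the submitters' processing notes, with Trimmomatic 0.35, Bowtie 1.2 and RSEM 1.2.31 against hg38. The annotation release is not given in the sources used here. Of the 58381 identifiers, 45 second chromosome Y copies, all at 0, were left out, and 58216 were matched to GENCODE release 29 by identifier without its version.

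The 22981 genes that reached 1 TPM in 3 or more libraries were fitted on the log2(TPM + 1) scale in R 4.3.3 with limma 3.58.1 and its trended variance. The model had a mean per group and took all 18 libraries together. Each of 6 comparisons was adjusted over all genes by Benjamini-Hochberg at 0.05. The script was tested on simulated data. Python 3.11.15 was used around the fit. The pseudocount of 1 shrinks differences of genes at low levels, and TPM keep no depth.

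The 8 genes and the lists were chosen with earlier results of these data known. The rule for names was all 8 genes, LEF1 and LRP6, up to 8 called genes per list and comparison or otherwise the 3 with the smallest p, the 5 genes most like SMOC2 and the 2 most like each other member. LGR4 and SMOC1 fell under this rule only in comparisons within SW620, and their values in SW480 were added after they were seen. Genes outside the rule, such as the overlapping genes, were also named after their values were seen. Alternatives were a pseudocount of 0.1, no filter, median-ratio scaling, a fit of the compared groups only, array weights, a replicate block and each library removed in turn. The mouse table was not analysed here, since its identifiers could not be joined to names.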

Additional observations from a re-analysis of the deposited data

Results flagged for a closer look

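ID2 and DKK1 drew attention because the effect of dnLEF1 differed between the lines. For ID2 the change in SW620 exceeded that in SW480 by 1.60 on the log2(TPM + 1) scale (SE 0.21, limma adjusted p 0.00251). All 3 SW480 dnLEF1 libraries, at 34.04 to 42.74 TPM, were below all 3 SW480 Mock libraries, at 92.98 to 111.81 TPM, while the SW620 groups overlapped at 80.03 to 95.36 TPM in dnLEF1 and 64.2 to 95.6 TPM in Mock. For DKK1 the difference between the changes was 2.02 (SE 0.34, limma adjusted p 0.00952). DKK1 was at 3.06 to 4.8 TPM in SW480 dnLEF1 and 7.75 to 12.88 TPM in Mock, and at 50.27 to 59.24 TPM in SW620 dnLEF1 and 19.88 to 39.8 TPM in Mock. With only the groups of that comparison in the fit, the DKK1 value had a limma adjusted p of 0.0568.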

How the results depend on the processing

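No sign of a called value turned under any alternative. Of 544 alternative values of the 7 genes 537 stayed within the spread between replicates and 7 moved. With a pseudocount of 0.1 SMOC2 came to 5.62 in SW480 dnLEF1 against Mock, 5.06 between the Mock groups and -5.25 for the difference between the dnLEF1 changes, which median-ratio scaling put at -3.52, and LGR5 and PROM1 came to 4.93 and 4.78 between the Mock groups. Median-ratio scaling put the PROX1 difference between the changes at -0.08. Counts of called genes depended on the fit. For SW480 dnLEF1 against Mock 512 genes were called, but 333 with a pseudocount of 0.1, 29 with only the 6 compared libraries and 261 with array weights. For SW620 dnLEF1 the count of 38 became 21 with that pseudocount, 120 and 394. For LRP6KO against Cas9 the count of 0 became 10 with the compared libraries alone and 1 with array weights. For Cas9 against SW620 Mock it became 1 without a filter, 8 and 101. The 165 between the dnLEF1 changes became 108 with median-ratio scaling, 43 and 358. Of the wider list 2 genes were called in SW480 dnLEF1, against 1 with median-ratio scaling, 0 with the compared libraries alone and 1 with array weights. Leaving out 1 library at a time gave 258 to 1214 genes in SW480 dnLEF1 (highest without SW480 dnLEF1 replicate 1), 17 to 26 in SW620 dnLEF1, 0 to 1 in Cas9 against Mock, 66 to 801 between the changes (highest without the same library) and 1 to 2 of the wider list. Median-ratio scaling changed the split into higher and lower from 311 and 201 to 190 and 225 in SW480 dnLEF1, from 13 and 25 to 21 and 17 in SW620 dnLEF1 and from 41 and 124 to 54 and 54 between the changes. The cause was not tested. Deviations of libraries with the same replicate number correlated at -0.13 to 0.12, and those of libraries with different numbers at -0.20 to 0.24. These ranges do not settle whether such libraries share more than the number. With the number as a replicate block 417 genes were called in SW480 dnLEF1, 32 in SW620 dnLEF1 and 0 in LRP6KO. The same block gave 5196 between the Mock groups, 0 in Cas9 against Mock and 144 between the changes. ID3 lost its call under that block (limma adjusted p 0.0625). The 4 planned comparisons of mouse genes were not run.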

Other observations

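The lines also differed across the BMP genes that were read beside SMOC2. Of 17 tested, 6 were higher and 7 lower in SW620 Mock than in SW480 Mock, with a median log2 difference of -0.48 beside -0.14 over all genes. The ligand BMP4 was at 141.1 ± 8.84 TPM in SW620 Mock and 18.08 ± 17.7 TPM in SW480 Mock (SD, n = 3 each; 3.33, SE 0.42, limma adjusted p 1.79e-05), and the target ID1 was higher by 2.67 (SE 0.21, limma adjusted p 8.38e-08). The ligand BMP7 was lower by -1.87 (SE 0.24, limma adjusted p 2.58e-05) and the inhibitory SMAD7 by -1.89 (SE 0.27, limma adjusted p 7.25e-05). SMAD6, also inhibitory, was higher by 1.00 (SE 0.22, limma adjusted p 0.0031). The BMP antagonists NOG and CHRD were lower, at 0.62 TPM or less on average in SW620 Mock. They were low in SW480 Mock too, at 0.82 and 1.91 TPM. The other called genes were BMPR1A, SMAD1 and ID3, which were higher, and ACVR1, SMAD5 and BAMBI, which were lower. BAMBI, NOG and CHRD passed narrowly (limma adjusted p 0.0494, 0.0415 and 0.0362), and whether these calls hold under the alternatives is not given here.

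Markers of differentiated cells did not divide the lines in 1 direction, with 3 of 9 tested genes higher and 2 lower in SW620 Mock. TFF3, a goblet cell peptide, was at 491.7 ± 30.7 TPM in SW620 Mock and 3.10 ± 4.65 TPM in SW480 Mock, and CHGB was at 22.75 ± 1.14 and 2.10 ± 0.53 TPM (SD, n = 3 each). CDX2 was at 1.95 ± 0.57 and 40.62 ± 6.05 TPM. Other listed secretory markers had means in SW620 Mock of 0.48 TPM for MUC2, 0.53 for SPDEF, 0.31 for FCGBP, 0.107 for NEUROG3 and 0.0967 for CHGA, and CLCA1, ATOH1 and NEUROD1 were at 0.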
